A study of Rattus norvegicus with 13 samples.

Results

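The transcriptional response of the ventral midbrain to a methamphetamine (METH) binge in rats that had already been preconditioned with the drug was examined by comparing METH/METH rats (MM) with METH/saline rats (MS). Members were taken from the array titles, 3 arrays titled MM and 4 titled MS, which together make 7 of the 13 arrays used here. The animals of all groups were male Sprague-Dawley rats of 8 weeks weighing 330 to 370 g. Both MM and MS rats received METH intraperitoneally in doses rising from 0.5 to 2.5 mg/kg over a period of 3 weeks, so that the control arm carries this drug history too. After a gap given as 72 h, MM rats were challenged with 8 injections of METH at 5 mg/kg, 1 h apart, and MS rats with saline, and all were euthanized 24 h later. The schedule in the labels has the last pretreatment on the Monday and the challenge on the Wednesday of the same week, which is shorter than 72 h. RNA of the dopaminergic midbrain (substantia nigra with ventral tegmental area, SN/VTA) from one side of the brain was hybridized to Illumina RatRef-12 BeadChips, whose 22523 probes each report one transcript as a fluorescence signal. The remaining groups, saline/METH (SM, n = 3) and saline/saline (SS, n = 3), had saline in place of the METH pretreatment. They serve to ask whether the challenge acted differently without preconditioning. Their arrays are also part of the model, and so of the spread behind the p-values of MM against MS.

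METH enters monoamine neurons through their plasma membrane transporters, empties their vesicles and releases dopamine, serotonin and noradrenaline. Repeated high doses close together heat the animal, raise oxidative stress and damage dopamine and serotonin terminals in the striatum, whereas smaller doses given beforehand lessen that damage, a state called preconditioning. The cell bodies of the dopamine neurons lie in the SN/VTA, and those of serotonin neurons in the raphe nuclei next to it.

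Signals are given in units of the background-subtracted fluorescence after each array was scaled to the same median, and a value of 0 stands for the lower limit of the deposited ratios. A probe was called changed at a difference of 1.7-fold with an unadjusted p under 0.05 in limma, from 1 model over all 13 arrays, and "rose" and "fell" are used for such probes only. Each array was taken as a separate rat, which the labels do not state, so the p-values measure the spread between arrays. Between 46.6 and 47.1% of probes exceeded 32 units on each array. The SD between arrays of a group came to 3.24 units where probes averaged 1 to 5 units and to 13.4 units where they averaged 32 to 100, so that a fold between dim signals has little precision. The set of arrays numbered 1 and 2 and the set of arrays numbered 3 and 4 each deviated together weakly. The median correlation of deviations between arrays of different groups was 0.0764 for the same number and 0.0416 for another number of the same set. It was -0.0602 between the sets. Not all pairs followed, with SM replicate 3 at -0.0569 with MS replicate 3 and 0.0915 with MS replicate 1. These sets come from the arrays and not from labels, and differences within each of them are given beside the main values. The higher-numbered set holds a single MM array, MM replicate 3.

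The tissue label was checked against markers of dopamine neurons. Th, the rate-limiting enzyme of dopamine synthesis, read 953, 2761, 472 and 287 units on MS replicates 1 to 4 and 1207, 398 and 449 on MM replicates 1 to 3. Slc6a3, the dopamine transporter, was at the limit on MS replicate 3 and lay between 129 and 2146 units on the other 6 arrays, and Slc18a2, the vesicular monoamine transporter, lay between 175 and 659. Th was thus present on all 7 arrays but differed several-fold between arrays of one group, and Foxa2, a transcription factor of dopamine neurons, was at the limit on MS replicates 3 and 4. The arrays also carried the serotonin enzyme Tph2, at 740 to 3141 units, and the noradrenaline enzyme Dbh, at a mean of 143 units in MS and 117 in MM, cell types that the tissue label does not name.

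Of 17140 probes tested, 223 were changed between MM and MS (1.3%), 132 higher in MM (0.77%) and 91 lower (0.531%). Of all tested probes 52.8% were higher in MM and the median log2 fold change was 0.01. An unadjusted p under 0.05 in limma was reached by 754 probes (4.4%), no more than this threshold lets through where no probe differs. An adjusted p under 0.05 was reached by 1 (0.00583%). Most of the changed probes were dim. In 183 of the 223 the brighter group averaged less than 32 units, and 109 had at least 1 array at the limit. On log2 of signal plus 16 units, which damps dim probes, 48 probes were changed, 36 higher in MM (0.21%) and 12 lower (0.0701%). That is 75% higher, against 59.2% on the main scale, and 29 probes were changed on both scales. Without MM replicate 2 the split turned, with 88 higher and 141 lower. Among the 10817 probes reaching 32 units in the brighter group, 28 rose (0.259%) and 12 fell (0.111%). Of these 40, 22 have a gene symbol, 13 that rose and 9 that fell, and all 22 are described below. Among them Trh had the smallest p of those that rose and Irf7 of those that fell.

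**Figure D1:**
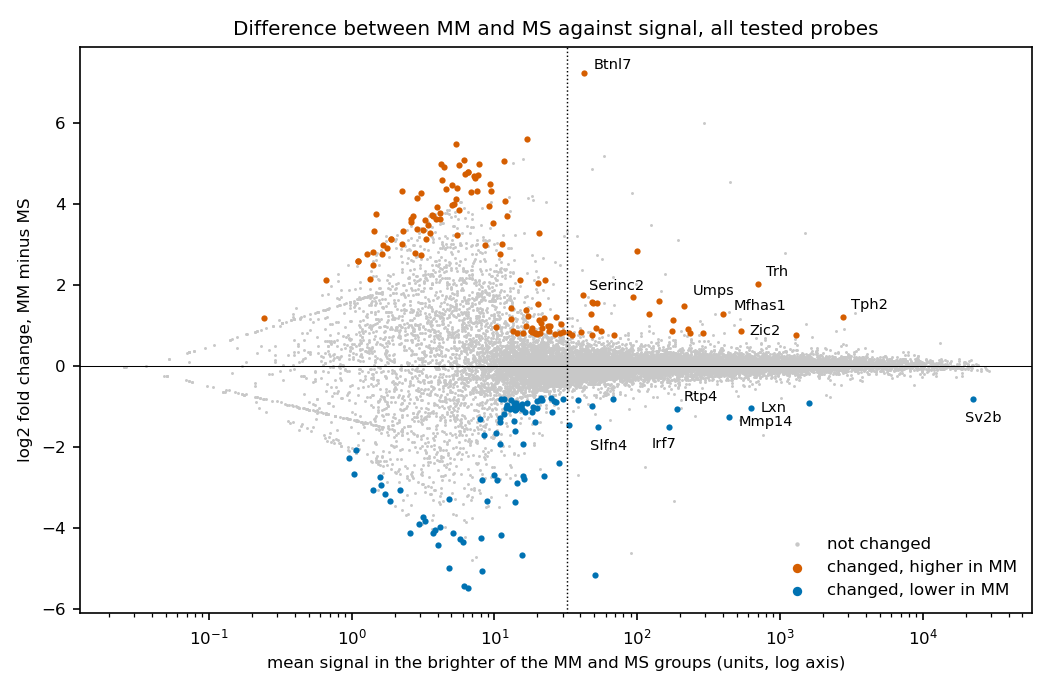
Log2 fold change of MM minus MS (vertical axis) against the mean signal of the brighter group in units (horizontal log axis) for the tested probes with a recovered signal. Grey points were not changed, orange points are among the 132 higher in MM, blue points are among the 91 lower, and the dotted line marks 32 units. Most coloured points lie to the left of the line, where folds are widest, while Trh, Tph2 and Irf7 stand to its right.

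Genes induced by interferon were lower in MM than in MS. Interferons are secreted on viral or sterile alarm and act through cell-surface receptors to switch on target genes that carry short elements in their promoters and that encode antiviral enzymes, RNA sensors and further regulators. Of the 69 names in the interferon-stimulated list, 53 are on the array and 50 were tested. Of the 50, 7 fell (14.0%, against 0.531% of all tested probes) and none rose, while 42 were lower and 8 higher in MM. The median log2 fold change of the list was -0.29, against 0.01 over all probes. It was -0.45 within replicates 1 and 2, -0.18 within replicates 3 and 4 and -0.18 without MS replicate 2, the array with the highest level of the list. The summed signal of the list overlapped between groups, at 7014 to 10064 units in MS and 6597 to 7449 in MM. So did the mean log2 level of its members of 32 units or more, at -0.36 to 0.4 in MS and -0.55 to -0.29 in MM. Lower within both sets were 23 of the 50. In 13 of the 50 every MM array lay below every MS array (26.0%, against 1.95% of all tested probes). The list was written with earlier results of these arrays known, so these shares describe it and do not test it.

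Irf7, the transcription factor that amplifies the type I interferon response, read 198, 261, 95.6 and 109 units on the MS arrays and 44.7, 50.1 and 67.9 on the MM arrays. All MM values lay below all MS values, and MS replicates 1 and 2 were the highest of the 13 arrays. The difference was -1.51 on the log2 scale (SE 0.31, adjusted p = 0.764), with -2.26 within replicates 1 and 2 and -0.59 within 3 and 4. Rtp4, a chaperone of cell-surface receptors that interferon induces, read 213, 282, 114 and 149 units in MS and 77.2, 94.9 and 83.8 in MM. Its groups did not overlap either, and it fell by 1.07 on the log2 scale (SE 0.28, adjusted p = 0.929). Slfn4, of the Schlafen family of myeloid cells, read 45.5, 105, 29.8 and 32.1 units in MS and 13, 26.7 and 12.2 in MM. MS replicate 2 was again the highest and the difference was -1.52 (SE 0.44, adjusted p = 1). Oas1a, an enzyme that senses double-stranded RNA and activates RNase L, read 44.4, 39.9, 34.2 and 15.4 units in MS and 6.45, 15.4 and 14.4 in MM. MS replicate 4 fell within the MM range, and the difference was -1.46 (SE 0.46, adjusted p = 1).

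The other 3 genes of the list that fell were dim. Ifit3, an antiviral protein with tetratricopeptide repeats, averaged 4 ± 1.9 units in MS (SD, n = 4) and was at the limit on 2 of 3 MM arrays. Usp18, the protease that removes Isg15 from proteins, averaged 3.73 ± 3.07 units in MS and Ifi44l 5.78 ± 5.97, and both were at the limit on all MM arrays, so no fold is given. On the scale of signal plus 16 units the differences of Ifit3 and Usp18 were -0.30 and -0.29. Several members missed 1.7-fold without overlap between groups. Lgals9, the lectin galectin-9, read 74.3, 62, 60.9 and 46.7 units in MS and 46.4, 37.6 and 30.4 in MM (-0.68, SE 0.19, 1.6-fold). The antiviral Oasl2 (-0.53, SE 0.19), the guanylate-binding protein Gbp2 (-0.59, SE 0.23) and the immunity-related GTPase Irgm (-0.39, SE 0.13) were likewise lower on every MM array. Not all members followed. The interferon-induced transmembrane protein Ifitm1 was 0.25 higher (SE 0.20), and Trim21 (0.07, SE 0.12) and Cmpk2 (-0.07, SE 0.13) differed by less than their SE.

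**Figure D2:**
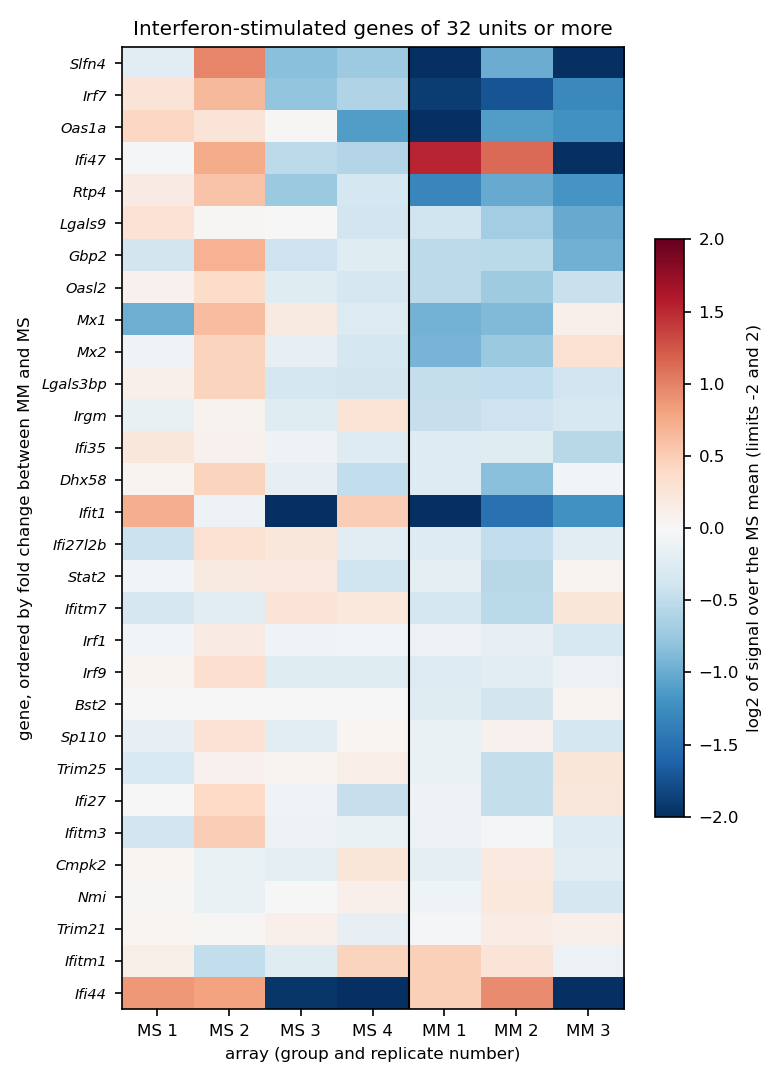
Signals of the 30 interferon-stimulated genes with at least 32 units in the brighter group (rows) on the 4 MS and 3 MM arrays (columns), as log2 of the signal over the mean of the MS arrays. Colours stop at -2 and 2, which includes signals at the limit. Of the 30 genes 27 were lower and 3 higher in MM by the fit, and MS replicate 2 is the reddest column.

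The promoters of the genes that fell are shown because many interferon targets carry a known element, the interferon-stimulated response element, whose core is GAAA, any pair of bases, and GAAA again. Of the 50 tested members 40 had an entry among the RefSeq promoters (rat build GRCr8). The core occurred on either strand in the 250 bases before the start site in 25 of the 40 (62.5%), against 3.41% of 33469 promoters of the same length. Among the 7 genes that fell, 5 had an entry and 4 held the core. Their sequences follow, 5′ to 3′ on the strand of the gene, with the core or its reverse complement in capitals.
Irf7 (chr1:205800024-205800273, minus strand): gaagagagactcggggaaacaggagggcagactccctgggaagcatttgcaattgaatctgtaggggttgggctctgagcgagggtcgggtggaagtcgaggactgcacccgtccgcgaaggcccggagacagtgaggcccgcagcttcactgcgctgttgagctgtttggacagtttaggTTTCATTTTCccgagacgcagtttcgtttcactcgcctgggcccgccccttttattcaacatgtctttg
Oas1a (chr12:41330216-41330465, plus strand, where 2 cores overlap): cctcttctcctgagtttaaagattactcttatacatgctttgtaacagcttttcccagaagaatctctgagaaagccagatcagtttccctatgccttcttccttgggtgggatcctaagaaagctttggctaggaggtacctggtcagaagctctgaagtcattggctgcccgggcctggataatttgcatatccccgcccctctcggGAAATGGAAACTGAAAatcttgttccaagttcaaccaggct
Ifit3 (chr1:241527076-241527325, plus strand): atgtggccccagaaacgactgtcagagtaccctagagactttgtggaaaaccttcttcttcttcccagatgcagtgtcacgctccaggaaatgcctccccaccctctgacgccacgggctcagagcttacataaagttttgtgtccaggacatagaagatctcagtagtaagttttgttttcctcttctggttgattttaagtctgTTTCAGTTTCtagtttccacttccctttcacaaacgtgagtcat
Ifi44l (chr2:243328473-243328722, plus strand): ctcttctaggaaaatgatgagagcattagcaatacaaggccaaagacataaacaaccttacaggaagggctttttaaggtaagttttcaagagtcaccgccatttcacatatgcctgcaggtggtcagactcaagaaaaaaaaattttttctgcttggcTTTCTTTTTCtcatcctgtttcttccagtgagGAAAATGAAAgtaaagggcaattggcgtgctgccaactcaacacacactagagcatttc
Slfn4 (chr10:68491970-68492219, plus strand, no core in this window): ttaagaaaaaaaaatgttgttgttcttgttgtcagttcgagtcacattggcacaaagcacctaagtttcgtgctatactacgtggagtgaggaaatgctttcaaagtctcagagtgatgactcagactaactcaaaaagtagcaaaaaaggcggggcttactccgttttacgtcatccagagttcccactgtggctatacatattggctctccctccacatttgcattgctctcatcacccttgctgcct
The core began 69 bases before the start site in Irf7, 44 in Ifit3 and 41 and 35 in Oas1a. The median log2 fold change was -0.39 in the 25 members with the core and -0.21 in the 15 without it. A match is a description of these letters only.

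The same list was examined after saline pretreatment, on other arrays. Between SM and SS its median was -0.33 and 7 members fell, against 0.91% of all tested probes lower in that comparison. The difference between both challenge effects had a median of -0.03 over the list. It had an unadjusted p under 0.05 for 3 members, of which Oas1a is the only one that also fell. It fell in MM against MS but differed by 0.34 between SM and SS (difference of the effects -1.8, SE 0.68, adjusted p = 1). Oas1a averaged 33.5 units in MS, 12.1 in MM, 15.4 in SS and 17.8 in SM, so that MS was the group that stood apart. For Irf7 the SM and SS arrays gave -0.96, with SS replicates at 101, 97.3 and 106 units and SM replicates at 44.2, 60.2 and 53.7 (difference of the effects -0.56, SE 0.45).

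Lists of cells that could carry interferon-stimulated RNA read as follows. Of 16 microglia and macrophage markers 10 were lower and none changed (median -0.09), and their summed signal was 5218 to 8274 units in MS and 6791 to 7439 in MM. Among the 12 of these markers reaching 32 units, 6 were higher and 6 lower (median 0.03). Ptprc, the common leukocyte antigen, was dim. It read 8.04, 8.3, 7.72 and 1.1 units in MS and 0, 3.42 and 0 in MM, so that MS replicate 4 lay within the MM range. Of 14 endothelial and mural markers 8 were lower (median -0.06, summed signal 6369 to 7307 units in MS and 6172 to 6601 in MM). Of 10 blood cell markers 7 were lower and none changed (median -0.21), with a median of -0.51 within replicates 1 and 2 and of 0.29 within 3 and 4. Hbb, beta-globin, read 19448, 17964, 13919 and 17127 units in MS and 13381, 10641 and 19337 in MM. Of 19 markers of meninges and choroid plexus 18 were lower and none changed (median -0.38, and -0.15 without MM replicate 3). Their summed signal was 24134 to 26705 units in MS and 22030 to 23882 in MM. Ttr, the transthyretin of the choroid plexus, read 300, 52.7, 3.81 and 4.58 units in MS and 1.57, 4.89 and 0 in MM. MS replicates 3 and 4 thus lay within the MM range for Ttr. Igf2 and Igfbp2, a growth factor of the meninges and its binding protein, were lower on every MM array (-0.38 each, SE 0.14 and 0.12). The part of these cells in the lower interferon-stimulated genes was not tested, and in bulk tissue fewer cells of a type cannot be told apart from less RNA per cell. Antigen presentation genes, a further set of interferon targets, did not share the direction as a list. Of 22 none changed and the median was -0.08, with RT1-S3, a class I histocompatibility gene, at -0.67 (SE 0.26, 1.59-fold) and the protease Ctss at 0.41 (SE 0.15).

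Trh, the precursor of thyrotropin-releasing hormone, a neuropeptide and hypothalamic hormone, rose the most of the named genes of 32 units or more with signal in both groups. It read 203, 262, 70.2 and 198 units in MS and 496, 586 and 1030 in MM. Every MM array exceeded every MS array (as for 2.74% of all tested probes), and the lowest value lay on MS replicate 3. The log2 fold change was 2.02 (SE 0.45, 4.06-fold, adjusted p = 0.767), 1.23 within replicates 1 and 2 and 3.13 within 3 and 4, and it lay between 1.61 and 2.24 when single arrays were left out. After saline pretreatment Trh rose as well, from 334, 278 and 171 units in SS to 463, 417 and 925 in SM (1.16, SE 0.48), and the effects differed by 0.86 (SE 0.66). Of 33 neuropeptide genes tested 18 were higher and 15 lower in MM, with a median of 0. Trh and Tac4 rose, against 0.77% of all tested probes, and none of the list fell. Tac4, of the tachykinin family, was dim, with 3 MS arrays at the limit and 10.3, 21.7 and 2.92 units in MM. Vgf, a neuronal secreted protein that growth factors induce, read 215, 197, 224 and 143 units in MS and 281, 307 and 298 in MM. Its groups did not overlap, and the difference of 0.62 (SE 0.16, 1.54-fold, adjusted p = 0.929) stayed under 1.7-fold. Scg2, a granin of the same kind of vesicle, was 0.40 higher without overlap (SE 0.14). Cartpt and Cck, both peptides of midbrain and neighbouring neurons, averaged 759 ± 775 and 2247 ± 1217 units in MS against 178 ± 105 and 1157 ± 233 in MM, and this spread was larger than the difference.

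**Figure D3:**
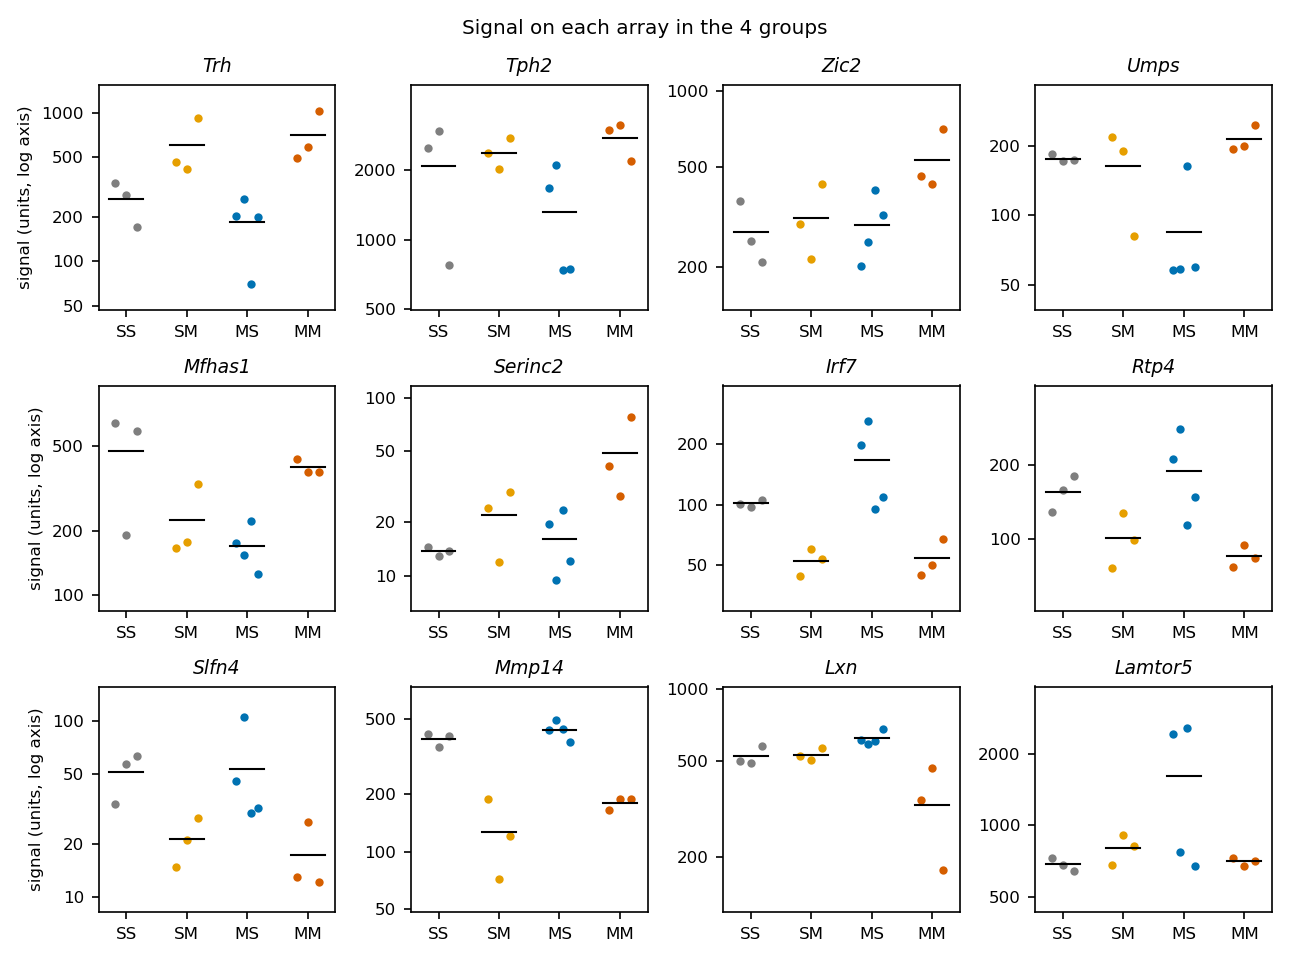
Signal in units (log axis, with its own range in each panel) of 12 genes on each array of the SS, SM, MS and MM groups. Points are arrays in order of replicate number and bars are group means. Trh was highest in MM, Irf7, Rtp4 and Slfn4 averaged lower in both challenged groups, and Lxn was low in MM alone.

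Markers of serotonin neurons were higher in MM, and 2 of the 4 MS arrays stood low. Tph2, the rate-limiting enzyme of neuronal serotonin synthesis, read 1673, 2103, 740 and 748 units in MS and 2981, 3141 and 2194 in MM. It rose by 1.21 on the log2 scale (SE 0.47, adjusted p = 1), with 0.71 in the lower-numbered set and 1.56 in the higher-numbered one. The call was lost without MM replicate 1, MM replicate 2, MS replicate 3 or MS replicate 4, and the value ran from 0.99 to 1.49 when single arrays were left out. Tph2 was the 1 serotonin marker that rose, against 0.77% of all tested probes. All 10 tested were higher, against 52.8% of all tested probes, with a median of 0.59 (0.95 without MS replicate 2). The median was 0.11 within replicates 1 and 2 and 1.44 within 3 and 4. The serotonin transporter Slc6a4 followed the same arrays, with 1151, 1683, 383 and 409 units in MS and 1724, 1373 and 1464 in MM, and so did the transcription factor Fev, with 315, 490, 73.3 and 80.6 units in MS and 487, 388 and 437 in MM. In both genes MS replicates 3 and 4 lay far below all MM arrays, while MS replicate 2 lay within the MM range for Slc6a4 and just above it for Fev. Maob, the monoamine oxidase of serotonin neurons and glia, differed. It read 851, 984, 866 and 984 units in MS and 1314, 1543 and 1109 in MM, without overlap (0.51, SE 0.14, 1.42-fold), and within the sets it was 0.64 and 0.26 higher. The mean log2 level of the list on SS replicate 4 was -0.46, close to those of MS replicates 3 and 4 (-0.68 and -0.61), whereas all MM and SM arrays lay between 0.53 and 0.75. Summed serotonin marker signal was 3167 to 9038 units in MS and 8476 to 10055 in MM. The part of dissection in these levels was not tested.

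No dopamine marker was changed. Of 13 tested 8 were higher and 5 lower (median 0.13), and none had groups without overlap. Th differed by -0.37 (SE 0.80), Slc18a2 by 0.85 (SE 0.56) and Slc6a3 by 0.68 (SE 1.67, with MS replicate 3 at the limit). The signs of Th and Slc6a3 each turned when one MS array was left out. Gch1, which makes the cofactor for both Th and Tph2, read 332, 585, 111 and 145 units in MS and 579, 434 and 417 in MM, low on the same MS arrays as the serotonin markers (1, SE 0.59). The mean log2 level of the dopamine list ran from -1 to 1.16 in MS and from -0.11 to 0.75 in MM. Like the serotonin list it was low on MS replicates 3 (-1) and 4 (-0.61) and on SS replicate 4 (-0.5). Of 6 noradrenaline and acetylcholine markers 5 were lower and none changed (median -0.35), with MS replicate 3 the highest at 0.83. Neurod6, a transcription factor of cortical and hippocampal pyramidal neurons that also marks some dopamine neurons of the VTA, read 26.3, 39.9, 116 and 43 units in MS and 104, 92.7 and 165 in MM. It rose (1.29, SE 0.58, adjusted p = 1), although MS replicate 3 lay within the MM range. Of 12 pyramidal neuron markers 1 other was changed (against 1.3% of all tested probes), the kinase Itpka, which fell (-0.79, SE 0.30). Itpka averaged under 32 units, and the median of the list was 0.01.

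**Figure D4:**
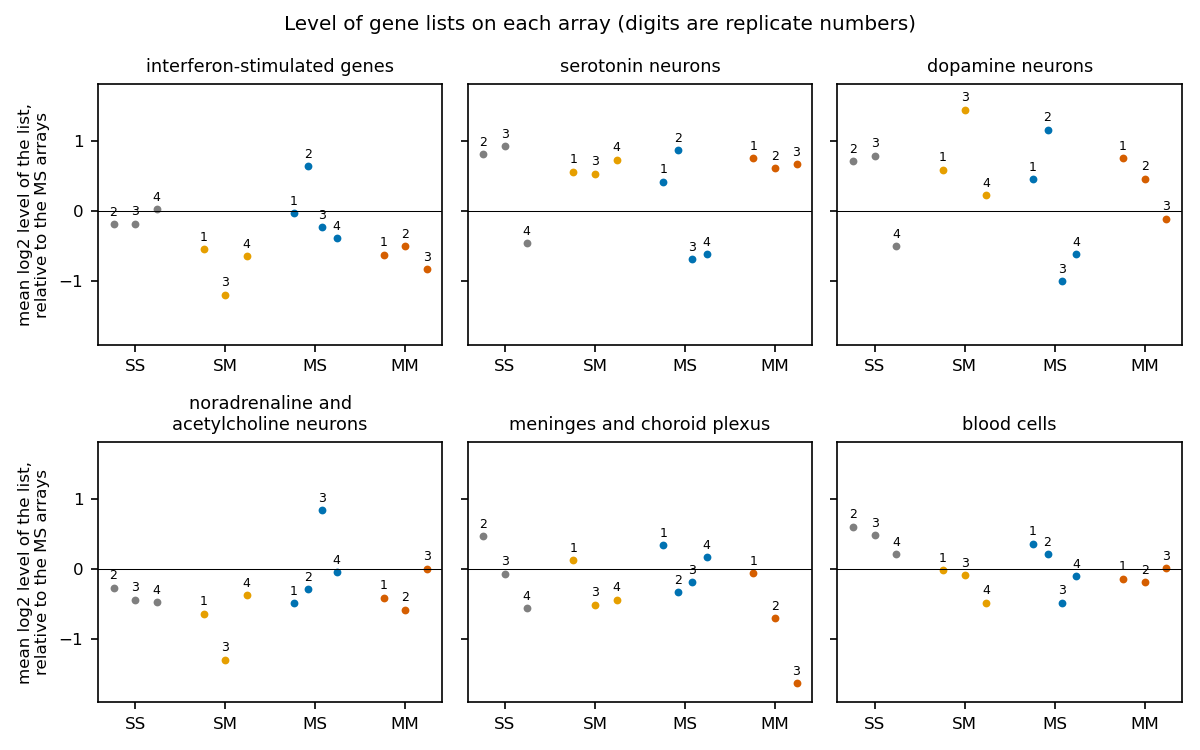
Mean log2 level of 6 gene lists on each array, relative to the mean of the MS arrays (0), by group, with the replicate number at each point. The interferon-stimulated list lay between -0.83 and -0.5 in MM and between -0.39 and 0.64 in MS. Over its members of 32 units or more, which are not drawn apart, the groups overlapped, with MM replicate 2 at -0.29 and MS replicate 3 at -0.36. The serotonin and dopamine lists were both low on MS replicates 3 and 4 and SS replicate 4.

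Zic2, Barhl1 and Slit3, known from the developing brain, rose, and their calls were lost without MM replicate 3. Zic2, a zinc finger factor of the neural midline, read 201, 251, 404 and 320 units in MS and 459, 427 and 708 in MM. The groups did not overlap, and the difference was 0.86 (SE 0.30, adjusted p = 1) and 0.98 within each set. Barhl1, a homeobox factor, read 200, 150, 165 and 118 units in MS and 221, 219 and 433 in MM (0.82, SE 0.31, adjusted p = 1), and MM replicate 3 set most of this difference, which was 0.50 without it. Slit3, a secreted guidance cue, rose from 23.4 ± 9.39 to 40.7 ± 13.2 units (0.84, SE 0.30), or 0.61 without MM replicate 3. Zic2 then stood at 0.64. Leaving out 1 MS array ended calls too, of Zic2 without MS replicate 1 (0.70) and of Barhl1 (0.69) and Slit3 (0.57) without MS replicate 4.

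A further 7 named genes of 32 units or more rose. Umps, which completes the synthesis of uridine monophosphate, read 57.9, 58.3, 163 and 59.7 units in MS and 193, 200 and 246 in MM. MS replicate 3 stood apart from the other MS arrays but still lay below all MM arrays (1.48, SE 0.40, 2.8-fold, adjusted p = 0.964). Mfhas1, which modulates Toll-like receptor signalling, read 175, 153, 222 and 125 units in MS and 436, 379 and 380 in MM (1.27, SE 0.38, adjusted p = 1), with 1.32 and 1.19 within the sets. Socs2, an inhibitor of cytokine and growth hormone receptor signalling, read 15.9, 22.1, 40.6 and 10.5 units in MS and 42.1, 52.5 and 48.5 in MM (1.27, SE 0.40). In these 3 genes no MM array overlapped with MS. Serinc2, of a family that carries serine into membrane lipids, rose from 16.2 ± 6.43 to 49.2 ± 25.9 units (1.56, SE 0.40), also without overlap. Rilp, the effector by which Rab7 moves lysosomes, rose from 20.9 ± 5.75 to 35 ± 3.94 units (0.77, SE 0.21), and Man1a2, a mannosidase that trims sugars in the Golgi, from 29 ± 7.06 to 48.4 ± 3.45 (0.77, SE 0.25). Both lay close to 1.7-fold, at 1.71 and 1.7, and each call was lost when any of 4 single arrays was left out (Rilp without MM replicate 1 or MS replicates 2, 3 or 4, Man1a2 without MM replicates 2 or 3 or MS replicates 2 or 4). Prss23 and Iqgap3 just missed it at 1.69. Btnl7, of the butyrophilin-like family, had no MS array above the limit and read 112, 3.56 and 10.6 units in MM. Since 1 array carries this signal and SS replicate 2 read 85 units, no fold is given.

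Besides the interferon-stimulated genes, 5 named genes of 32 units or more fell. Mmp14, a membrane-bound protease that cuts matrix and activates other proteases, read 437, 491, 443 and 378 units in MS and 165, 188 and 190 in MM. The highest MM array lay far below the lowest MS array, and the difference was -1.27 (SE 0.28, 2.41-fold, adjusted p = 0.767), with -1.4 and -1.11 within the sets. Mmp14 fell after saline pretreatment too, from 416, 354 and 404 units in SS to 189, 72 and 121 in SM (-1.73, SE 0.30), and the effects differed by 0.45 (SE 0.41). Lxn, an inhibitor of carboxypeptidases, read 613, 593, 609 and 682 units in MS and 344, 469 and 177 in MM (-1.03, SE 0.25, adjusted p = 0.843). The MS arrays were alike and the MM arrays spread widely. The difference was -0.63 without MM replicate 3, where the call was lost. In SM and SS all arrays lay between 490 and 579 units, and the challenge effects differed by -1.05 (SE 0.37, adjusted p = 1).

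Kcnh3, a voltage-gated potassium channel of the ether-a-go-go family, read 56, 28.2, 45.9 and 61.7 units in MS and 21.4, 24.8 and 23 in MM (-1, SE 0.34, 2-fold, adjusted p = 1), without overlap and with -0.79 and -1.21 within the sets. Sv2b, a protein of synaptic vesicles, was among the brightest probes, at 25100, 14147, 29199 and 21454 units in MS and 15308, 14356 and 8609 in MM (-0.81, SE 0.34, 1.76-fold). MS replicate 2 lay within the MM range, and the call was lost without any 1 of MM replicate 3 and MS replicates 1, 3 and 4. Lamtor5, a subunit of the Ragulator complex that recruits mTORC1 to lysosomes, read 2424, 767, 2562 and 671 units in MS and 727, 675 and 708 in MM (-0.93, SE 0.41). Only MS replicates 1 and 3 stood apart, the other 11 of the 13 arrays lying at or below 907 units, and the call was lost without either of them or without any 1 MM array. Just short of the threshold lay the cold-induced RNA-binding protein Rbm3, at 510, 613, 390 and 512 units in MS and 311, 341 and 252 in MM (-0.74, SE 0.17, 1.67-fold, adjusted p = 0.767), and its relative Cirbp (-0.44, SE 0.14). Rarres1 (1.65-fold lower), Serf2 (1.66) and Cyb561a3 (1.65) also lay just short, and are named because of these values.

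**Figure D5:**
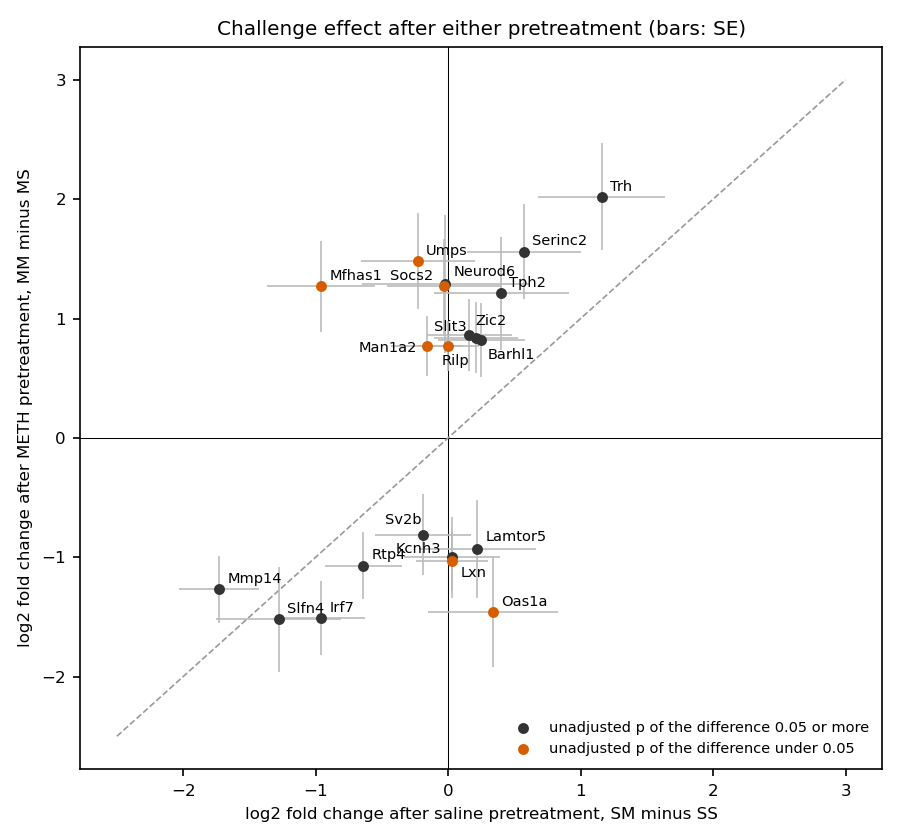
Log2 fold change after METH pretreatment (MM minus MS, vertical axis) against that after saline pretreatment (SM minus SS, horizontal axis) for 21 named changed genes of 32 units or more, with bars of 1 SE and a dashed line of equal effects. Orange points are the 7 genes whose effects differed at an unadjusted p under 0.05. Trh, Mmp14, Slfn4, Irf7 and Rtp4 are among the genes with the same sign in both comparisons, and Mfhas1 and Oas1a among those with opposite signs.

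Whether the challenge acted differently in preconditioned rats was tested as the difference of both challenge effects. It was called at the same criterion for 294 probes (1.72%), and limma gave an adjusted p under 0.05 for none (smallest 0.822), with 487 probes at an unadjusted p under 0.05. In SM against SS, 273 probes were changed (1.59%), 117 higher (0.683%) and 156 lower. Of the 223 probes changed in MM against MS, 14 were among them (6.28% of the 223 and 5.13% of the 273), 5 higher and 4 lower in both. Of the 21 genes in the plot of both effects 7 differed at an unadjusted p under 0.05. They were picked for their MM minus MS difference, which is part of this contrast, so these p-values are smaller than those of genes picked without it. Mfhas1 rose in MM and was lower in SM, with 646, 191 and 591 units in SS and 166, 178 and 334 in SM (difference of the effects 2.23, SE 0.56, adjusted p = 1). For Umps it was 1.71 (SE 0.58), for Socs2 1.30 (SE 0.59), for Man1a2 0.92 (SE 0.37) and for Rilp 0.78 (SE 0.31), and these 4 differed by -0.23 or less in size between SM and SS. Among genes above the floor on all 13 arrays and chosen by the smallest p of this difference, the dimmer Enpp7, a sphingomyelinase, rose from 12.8 ± 5.64 to 23.7 ± 4.64 units in MM, and the F-box protein Fbxl12 (11.6 ± 2.6 to 6.94 ± 2.94), the transcription repressor Hic1 (16.9 ± 7.23 to 8.46 ± 2.11), the cilia gene Odad4 (13.9 ± 2.45 to 4.81 ± 2.02) and the pheromone receptor Vom1r73 (7.89 ± 1.46 to 3.94 ± 3.24) fell. These signals are of the order of the spread between arrays.

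Lists of stress and antioxidant genes, which METH is known to engage, had medians of 0.07 to 0.12, against 0.01 over all probes. Beside the counts below, 52.8% of all tested probes were higher in MM and 0.77% rose. Between SM and SS the medians were 0.14 for the heat shock list, 0.04 for endoplasmic reticulum stress and 0.11 for antioxidant genes. Of 24 heat shock and cold-inducible genes 18 were higher and 1 rose. This was Hspb2, a small heat shock protein best known from muscle, which read 0, 3.14, 0 and 0 units in MS and 1.89, 6.01 and 3.13 in MM. On the scale of signal plus 16 units this is 0.23. The major chaperone Hsp90aa1 was 0.28 higher (SE 0.18), 0.64 within replicates 1 and 2 and -0.31 within 3 and 4. Of 24 genes of endoplasmic reticulum stress 20 were higher and none changed, with a median of 0.07 over all 24. Hsp90b1, a chaperone of that compartment, averaged 3327 ± 215 units in MS and 4044 ± 389 in MM (0.28, SE 0.12). Of 29 antioxidant genes 23 were higher (median 0.12) and 1 rose, Srxn1, which reactivates peroxiredoxins and was at the limit on 3 MS arrays and on MM replicate 2. In 5 of the 29 every MM array lay above every MS array, against 2.74% of all tested probes, and in none below. Hmox1, the inducible heme oxygenase, read 229, 209, 226 and 239 units in MS and 303, 246 and 278 in MM, without overlap (0.28, SE 0.14). The superoxide dismutases Sod1 (0.11, SE 0.10) and Sod2 (0.17, SE 0.10) and glutathione peroxidase Gpx1 (0.01, SE 0.15) differed by less than 2 SE. Bdnf, the growth factor of midbrain dopamine neurons, read 129, 123, 125 and 113 units in MS and 142, 167 and 151 in MM, without overlap (0.32, SE 0.10, 1.25-fold). Of 20 immediate early genes none changed. Fos read 91, 111, 131 and 91 units in MS and 101, 138 and 217 in MM (0.46, SE 0.24), and Jun (-0.08, SE 0.13) and Junb (0.09, SE 0.13) did not separate the groups.

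A further list holds the genes that were measured by quantitative PCR, of which Hspb2, Trh, Pip5k1c and Ptprm were picked from these arrays, so the direction of these 4 is not independent evidence. Of its 16 names 12 were tested, of which 11 were higher in MM, against 52.8% of all tested probes. The 4 that rose, against 0.77% of all tested probes, were Trh, Hspb2, Pip5k1c and Ptprm. Pip5k1c, a kinase that makes the membrane lipid PIP2 at synapses, read 0, 1.21, 0 and 0 units in MS and 4.09, 2.17 and 1.84 in MM, and Ptprm, an adhesive receptor phosphatase, 1.55, 0, 0 and 0 in MS and 2.75, 2.45 and 2.59 in MM. Their groups did not overlap, but all values are below the SD of 3.24 units or close to it, and the differences on the scale of signal plus 16 units were 0.20 and 0.18.

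Some probes were above the limit in one group only. In 9 probes all MS arrays were at the limit and all MM arrays above it, and in 4 the reverse held. The median MM signal of the 9 was 3.08 units. Hyal5, of the hyaluronidase family of sperm, was the probe with an adjusted p under 0.05 (0.0415 in limma). It read 1.42, 3.42 and 1.95 units in MM and 0 on all other 10 arrays. It exceeded the floor in MM alone and had no spread on the other arrays, so nothing is read from this p. On the scale of signal plus 16 units it differed by 0.19. Il1a, the cytokine interleukin 1 alpha, read 2.83, 5.87 and 0.54 units in MM and 0 on the other arrays, and Acoxl, an acyl-coenzyme A oxidase-like enzyme, read 3.78, 4.35, 0.423 and 1.65 units in MS and 0 in MM.

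Glial lists differed little in their medians. Of 15 oligodendrocyte markers 12 were lower (median -0.08) and none changed. The mean log2 level of this list ran from -0.07 to 0.08 in MS and from -0.18 to -0.07 in MM. In 2 of the 15 every MM array lay below every MS array, against 1.95% of all tested probes. Mal, a protein of myelin membranes, read 9820, 7771, 8136 and 9057 units in MS and 5947, 6913 and 5964 in MM, without overlap (-0.47, SE 0.11, 1.38-fold, adjusted p = 0.806). Cnp, a myelin enzyme, was -0.26 (SE 0.10), also without overlap. Of 14 astrocyte markers 9 were higher (median 0.04) and none changed, with the water channel Aqp4 at 0.30 (SE 0.21). Of 7 markers of glutamate and GABA neurons none changed (median 0.07), and Pvalb, parvalbumin, differed by -0.18 (SE 0.15).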

How the data were processed

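Expression was measured on Illumina RatRef-12 BeadChips. The authors extracted signals with BeadStudio (version not given in the sources used here), normalized globally in GeneSpring and deposited ratios. By their values, each ratio is the background-subtracted signal times an array factor, divided by the probe's median over the 13 arrays (or by 10 units where that is lower), with a lower limit of 0.01, which 28.2% of values carry. Signals in units were recomputed from these ratios for all but 13 of 22523 probes. In the ratios, 29831 of 29831 dim values examined were whole multiples of 1 raw step, within 0.02 of a step.

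Ratios were divided by the array's median over the 14294 probes above the limit on all arrays, floored at their 25th percentile (0.0105) and log2-transformed. Probes had to exceed the floor on 3 arrays or more, which left 17140, tested in limma 3.58.1 (R 4.3.3), with 1 mean per group over 13 arrays, a trended prior and Benjamini-Hochberg adjustment. The threshold of a fold with an unadjusted p follows the study's methods. The scripts were tested on simulated data. Log2 fold changes of dim probes depend on the floor, so log2(signal + 16 units) was run beside them. Symbols came from the platform annotation (13793 probes with 1 symbol, 8730 with none). In lists, the brightest probe stood for its gene.

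Genes named by rule were, per direction, the 12 changed probes with a symbol, at least 32 units in the brighter group and the smallest p, the changed members of each list or its 2 members with the smallest p, the PCR genes, Th, Slc6a3, Slc18a2, probes with an adjusted p under 0.05, the brightest probes at the limit in one group only, and, among changed genes above the floor on all 13 arrays, the 6 with the smallest p for the difference of effects. Neurod6, which fell outside the first rule, and the other list members were named after their values were seen. Members and lists were chosen with earlier results of these data known. Alternatives were another normalization, scale, floor, filter, prior, set of arrays or block, and leaving out each MM and MS array. Array numbers are replicate numbers from the titles. The number of arrays limits the precision.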

Additional observations from a re-analysis of the deposited data

Results flagged for a closer look

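Among 66 named genes whose 4 MS signals were examined, 5 had 1 array apart from the other 3 by more than Dixon's critical value for 4 samples, which chance gives in about 1 of 20 groups. Umps read 163 units on MS replicate 3 against 57.9 to 59.7 on the others. Ret, the receptor of the dopamine neuron growth factor Gdnf, read 249 units on MS replicate 2 against 133 to 147. Pvalb read 805 units on MS replicate 2 against 967 to 1001. Sod2 read 1020 units on MS replicate 4 against 1187 to 1221. Ptprc read 1.1 units on MS replicate 4 against 7.72 to 8.3, where the SD between arrays of a group is 4.93 units for probes averaging 5 to 10 units.

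The challenge effect differed between METH-pretreated and saline-pretreated rats at an unadjusted p under 0.05 for 7 of the 21 named genes of 32 units or more that were picked by p in MM against MS (limma, adjusted p = 1 for each). The difference of the effects on the log2 scale was 2.23 for Mfhas1 (SE 0.56), 1.71 for Umps (SE 0.58), 1.3 for Socs2 (SE 0.59), 0.92 for Man1a2 (SE 0.37) and 0.78 for Rilp (SE 0.31). It was -1.05 for Lxn (SE 0.37) and -1.8 for Oas1a (SE 0.68). Named genes under 32 units are not listed here. The 7 genes were selected on the MM minus MS difference, which enters this contrast.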

How the results depend on the processing

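Of the 21 genes of 32 units or more named by p, 10 kept their call in each of 19 settings (Trh, Serinc2, Umps, Mfhas1, Socs2, Irf7, Mmp14, Rtp4, Slfn4 and Oas1a), 11 lost it in at least 1, and none turned its direction. On log2 of signal plus 16 units 48 probes were changed (36 higher, 12 lower) and 87 for the difference of the effects. Among probes above the limit on all arrays these numbers were 108 (59 and 49) and 174, where fewer probes were tested. With single arrays left out, 229 to 308 probes were changed, 88 to 190 higher and 99 to 141 lower, and 278 to 353 for the difference of the effects. The interferon-stimulated list had a median between -0.45 and -0.17 in all settings. The serotonin list had 1.44 within replicates 3 and 4 and 0.11 within 1 and 2, and the heat shock list -0.05 within 3 and 4. Gpx1, at 0.01, turned to -0.03 with quantile normalization, -0.04 with the array set as a block, -0.02 with scaling to the all-probe median (chosen after seeing the data) and -0.09 to 0.08 with single arrays left out. Over single arrays left out Jun ran from -0.15 to 0.0, Th from -0.87 to 0.25 and Slc6a3 from -1.19 to 1.81, and the cause was not tested. Over all named genes and settings there were 1332 values on the same side of the threshold as reported, 146 below it, 15 newly past it and 10 reversed.

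Same-numbered MM and MS arrays correlated in their deviations by 0.0646, 0.1111 and 0.1331, and the labels do not tie them, so they share only a number. With the replicate block 237 probes were changed, 96 of them among the 223, and 16 of the 21 named genes kept their call. The interferon-stimulated list then had a median of -0.35, the serotonin list of 0.55, and Gpx1 stood at -0.09. Dim signal limits most calls, since 183 of the 223 changed probes averaged under 32 units.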

Other observations

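No clock gene or glucocorticoid-responsive gene was changed. Of 13 circadian clock genes tested 6 were higher and 7 lower in MM (median -0.02). Groups did not overlap for 1 with MM higher and 2 with MM lower, against 2.74% and 1.95% of all tested probes. Bmal1, the activator that drives the clock with Clock or Npas2, read 72.8, 73.4, 72.7 and 75.4 units in MS and 63.6, 59.5 and 60.1 in MM, a difference of -0.27 on the log2 scale (SE 0.09) without overlap between groups. Between SM and SS Bmal1 differed by -0.46 (SE 0.1). In MM minus MS its partner Npas2 was at -0.45 and the repressors Cry1 and Per2 at 0.26 and 0.41. Of 18 glucocorticoid-responsive genes none changed (median 0.11), with the metal-binding Mt1 at -0.28 and the sulfotransferase Sult1a1 at 0.40. Of 19 neurotrophic factor genes and 9 lymphocyte markers none changed either, with medians of 0.03 and 0.11, and the summed lymphocyte marker signal was 96.6 to 144 units in MS and 112 to 149 in MM.

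Umps and Lamtor5 had signals at separate levels across all groups. Umps read at most 81.6 units on 4 of the 13 arrays, 3 MS arrays and SM replicate 4, and at least 163 on the other 9. Lamtor5 read at most 907 units on 11 arrays and at least 2424 on MS replicates 1 and 3.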
